A study of Mus musculus with 6 samples.

Results

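Innate receptors are the proteins with which leukocytes read microbes, antibodies and their own tissue. The genes described here are the entries of the count table whose symbol starts with Clec, Siglec, Lilr, Pilr, Cd300 or Fcgr, or is Tlr followed by a number. There were 63 of them among 17128 genes, and 51 had enough reads to be tested. All 6 libraries came from cells sorted out of femurs of mice at postnatal day 21, about 20000 cells per library. The CXCL12-deficient group (n = 3) was GFP+ tdTomato+ and came from mice that carried the Col2a1-cre transgene on a Cxcl12(GFP/fl) and R26R(tdTomato/+) background. The control group (n = 3) was GFP+ and came from mice with the same Cxcl12(GFP/fl) and R26R(tdTomato/+) alleles but no cre in the genotype, so both groups had 1 Cxcl12 allele replaced by GFP and a floxed other allele. In the CXCL12-deficient group the Col2a1 promoter drives cre in skeletal precursors, and their descendants lose the floxed allele and switch on tdTomato. The gate, the transgene and the loss of CXCL12 therefore differ together and cannot be told apart. Whether every library had its own animal is not given in the labels, and the spread that p-values measure here may therefore be technical.

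C-type lectins bind sugars, lipids or proteins through a shared fold, and Siglecs bind sialic acid. Lilr, Pilr and Cd300 receptors come as pairs of activating and inhibitory members, and Fc gamma receptors bind the constant part of IgG. Activating members signal through the adaptors Fcer1g or Tyrobp to the kinase Syk, while inhibitory members recruit the phosphatases Ptpn6 and Inpp5d. Toll-like receptors bind microbial lipids, proteins or nucleic acids and signal through Myd88 or Ticam1. Most of these genes are used by myeloid cells, but a few are not leukocyte receptors at all: Clec11a encodes osteolectin, a growth factor of bone made by stromal cells, Clec3b the secreted protein tetranectin, and Fcgrt the receptor that rescues IgG and albumin from breakdown.

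The targeted gene followed the labels. Cxcl12, with its exon entries summed, had 1423, 1279 and 1163 CPM (read counts scaled to the depth of the library, with TMM factors) in the CXCL12-deficient libraries, against 3874, 3671 and 3692 CPM in the controls. Library totals ran from 20133299 to 28009257 reads, so that 1 read was worth 0.0357 to 0.0472 CPM. Several lists of markers of other marrow cells moved with the groups. Summed over 11 measured neutrophil markers the level was 2288 to 6686 CPM in CXCL12-deficient libraries and 14300 to 19920 CPM in controls, and all 11 were called lower. The 5 pan-leukocyte markers, all called lower, summed to 197.5 to 403 CPM against 1076 to 1716 CPM in controls. Endothelial markers (4 of 8 called lower) summed to 11.99 to 25.56 CPM against 83.2 to 120.7 CPM, and megakaryocyte markers (4 of 5) to 5.95 to 13.8 CPM against 70.8 to 241 CPM. Fewer markers were called lower for the B lineage (2 of 6), T and NK cells (1 of 6) and dendritic cells (1 of 6). Their median log2 fold changes were -1.87, -2.50 and -1.79 in that order, against -2.10 for the neutrophil markers. Negative values were found for 6, 6 and 5 of these markers, and 6, 5 and 4 were lower without overlap. Each of these lists had a lower sum in every CXCL12-deficient library than in every control. Fewer calls therefore do not show a smaller decrease, and differences between lists were not tested. None of 5 erythroid markers was called, and their sums overlapped at 1135 to 4195 CPM in CXCL12-deficient libraries and 1648 to 2556 CPM in controls. The 8 markers of CXCL12-abundant reticular cells, the main stromal source of CXCL12, summed to 5332 to 6965 CPM in CXCL12-deficient libraries and 6482 to 6866 CPM in controls, with Cxcl12 itself among them. Without Cxcl12 the other 7 summed to 4054 to 5802 CPM against 2790 to 3195 CPM in controls, all 7 had a positive log2 fold change, and Adipoq (0.98 ± 0.22) and Ebf3 (0.71 ± 0.14) were called higher. No marker was at 0 throughout a group. In such sorted bulk samples fewer cells of a type and less RNA per cell cannot be told apart, and the part these markers have in the results below was not tested.

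Leukocyte receptors made up most of the decreases in the CXCL12-deficient libraries. None was found among the 2 tested secreted lectins or the 3 tested broadly expressed members. These classes are too small to be compared with the others, and differences between classes were not tested. Of the 51 tested members, 19 fell and 1 rose (edgeR quasi-likelihood test, Benjamini-Hochberg adjusted p below 0.05, here named a call), and 31 were not called. Over all 13926 tested genes 3.94% were called lower, 0.639% higher and 4.57% either way. The median log2 fold change, CXCL12-deficient over control, was -1.79 for the tested members and 0.03 for all tested genes. A negative value was found for 43 of the 51 members, against 47.4% of all genes. At 32 members every CXCL12-deficient library lay below every control, and at 2 every one lay above, against 13.9% and 11.7% of all genes. By DESeq2 27 members were called lower, against 7.25% of all genes. Leaving out CXCL12-deficient replicate 2 left 12 called lower, against 2.89% of all genes tested in that refit. Leaving out control replicate 2 left 7, against 1.08%, and leaving out control replicate 3 left 5, against 0.521%. In the 6 families known mainly from leukocytes (myeloid C-type lectins, Siglec, Lilr, Pilr, Cd300 and Fc gamma receptors) 16 of 32 tested members fell, 30 had a negative log2 fold change and the median was -1.93. With the same 3 libraries left out in turn that count was 10, 6 and 5. Summed, the 38 genes of these families held 322, 205.5 and 147.9 CPM in CXCL12-deficient libraries and 699, 891 and 952 CPM in controls. The other 12 members were too low to test, with at most 29 reads in any library, and they include Clec3b, Clec9a, Lilra5, Tlr5 and Tlr9.

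**Figure D1:**
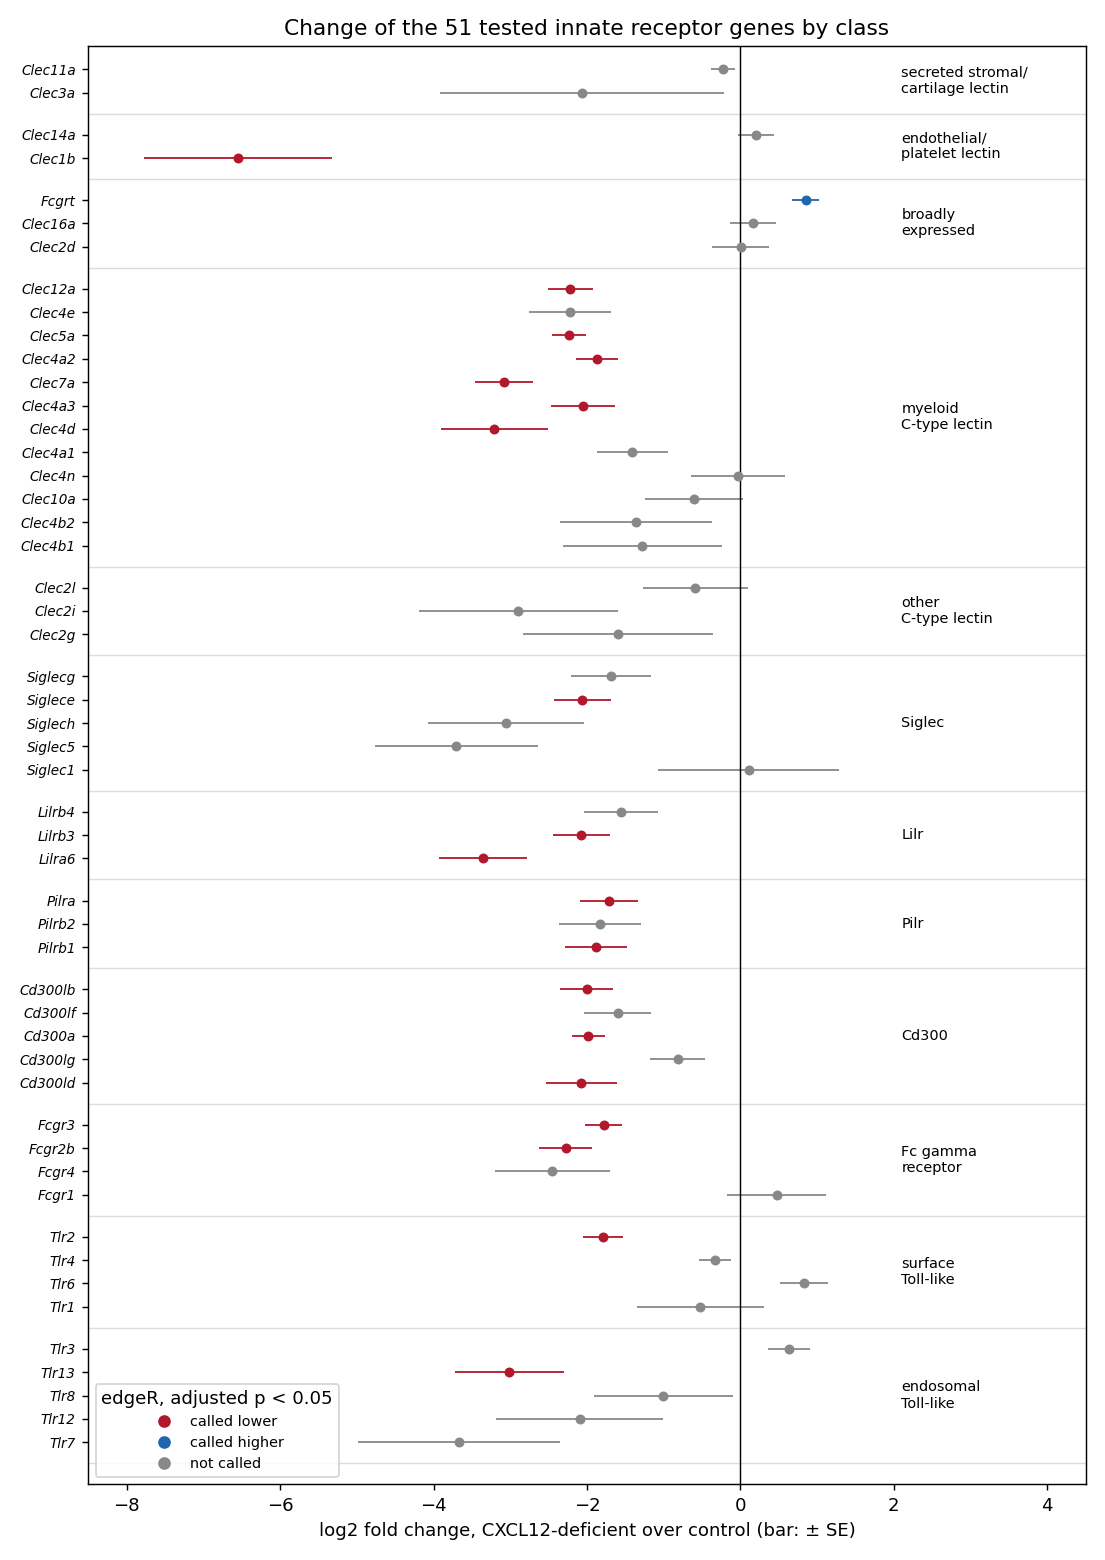
Log2 fold change (CXCL12-deficient over control, bar ± SE) of the 51 tested members, grouped by class and ordered by mean level within a class. Red points were called lower, the blue point higher and grey points were not called. The leukocyte families sit mostly near -2, whereas Clec11a, Clec14a, Clec16a and Clec2d sit near 0 and Fcgrt above it.

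No secreted stromal lectin was called. Clec11a had 107.9, 110.7 and 138.7 CPM in CXCL12-deficient libraries and 156.1, 131.6 and 129.8 CPM in controls. The groups overlapped, with 1 CXCL12-deficient library above 2 of the controls. Its log2 fold change was -0.22 ± 0.16 (SE; adjusted p = 0.51, edgeR), and between -0.35 and -0.15 when 1 library was left out. Per kilobase of annotated exon it stood at 40.0 and 46.7 CPM per kb in CXCL12-deficient and control libraries, the next highest after Fcgrt among the members in CXCL12-deficient libraries.

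The other secreted lectins were near the detection limit. Clec3b, which binds plasminogen and is made by many mesenchymal cells, had 6, 3 and 0 reads in CXCL12-deficient libraries and 0 in each control, where a count of 0 allows up to 3 reads. It was too low to test, so no direction can be given at this depth. Clec3a, a lectin of cartilage, had 84, 0 and 0 reads in CXCL12-deficient libraries and 1, 260 and 88 in controls. Single libraries carry that gene in both groups, and its log2 fold change of -2.06 ± 1.86 was not called (adjusted p = 0.62).

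Fcgrt was both the most abundant member per kilobase in either group and the only one that rose. It had 978, 871 and 1027 CPM in CXCL12-deficient libraries and 583, 580 and 429 CPM in controls. Every CXCL12-deficient library exceeded every control. The log2 fold change was 0.85 ± 0.18, or 1.81-fold (adjusted p = 0.030). Of the 6 refits, the one without CXCL12-deficient replicate 2 kept this call, and it was also made by DESeq2 and limma-voom on all libraries. Without another single library the adjusted p reached up to 0.14, while the log2 fold change stayed between 0.71 and 0.92. The 7 stromal markers other than Cxcl12 were also higher in sum, and their part in the Fcgrt result was not tested. In the annotation Fcgrt lies on the minus strand of chromosome 7, at chr7:45092990-45103851, and Clec11a lies on the same strand and chromosome at chr7:44302687-44306902. The other broadly expressed members were not called. Clec16a, a regulator of autophagy named after lectins, averaged 20.3 ± 5.57 and 18.2 ± 5.57 CPM in CXCL12-deficient and control libraries, and Clec2d, a ligand of natural killer cell receptors, 4.25 ± 0.90 and 4.23 ± 0.66 CPM (SD, n = 3 each).

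The members with a known home in vessels and platelets gave different calls, a difference that was not itself tested. Clec14a, a lectin-like receptor of endothelial cells, had 84.6, 120.2 and 150.4 CPM in CXCL12-deficient libraries and 122.4, 105.2 and 80.6 CPM in controls. Neither group stood above the other (log2 fold change 0.20 ± 0.23, adjusted p = 0.71; near 0 without CXCL12-deficient replicate 3). The endothelial marker Cdh5 had 0.62, 0.09 and 0.49 CPM in the CXCL12-deficient libraries and 6.14, 3.58 and 4.63 CPM in controls, and Esam averaged 2.64 ± 0.43 and 21.6 ± 5.09 CPM. Both markers fell (log2 fold changes -3.56 ± 0.71 and -3.03 ± 0.29, adjusted p = 0.026 and 0.0039). All 8 endothelial markers had a negative log2 fold change, and 4 were called lower. The groups overlapped at Stab2 (-0.98 ± 0.52, adjusted p = 0.36) and Flt4 (-0.99 ± 1.14, adjusted p = 0.71), which were not called. Per kilobase, Clec14a stood at 25.9 CPM per kb in CXCL12-deficient libraries against 0.10 for Cdh5 and 0.92 for Esam. In controls the same 3 genes stood at 22.5, 1.14 and 7.53 CPM per kb. In which cells Clec14a was transcribed was not tested.

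Clec1b, the platelet receptor for podoplanin, was nearly absent from the CXCL12-deficient libraries. It had 2, 0 and 0 reads there, against 51, 156 and 28 reads in controls. Controls were 111-fold higher, with an exact 95% interval from 30.3 to 918 that covers counting error only. The fitted log2 fold change was -6.55 ± 1.22 (adjusted p = 0.020), -9.24 without CXCL12-deficient replicate 1 and -5.55 without control replicate 2, and depends on the prior count. The call was lost without CXCL12-deficient replicate 2, control replicate 2 or control replicate 3, and limma-voom on all libraries did not make it (-6.11). The platelet genes Pf4 and Ppbp averaged 1.88 ± 0.69 and 0.64 ± 0.26 CPM in CXCL12-deficient libraries and 45.1 ± 30.6 and 39.2 ± 36.9 CPM in controls, with control replicate 2 highest for all 3 genes.

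**Figure D2:**
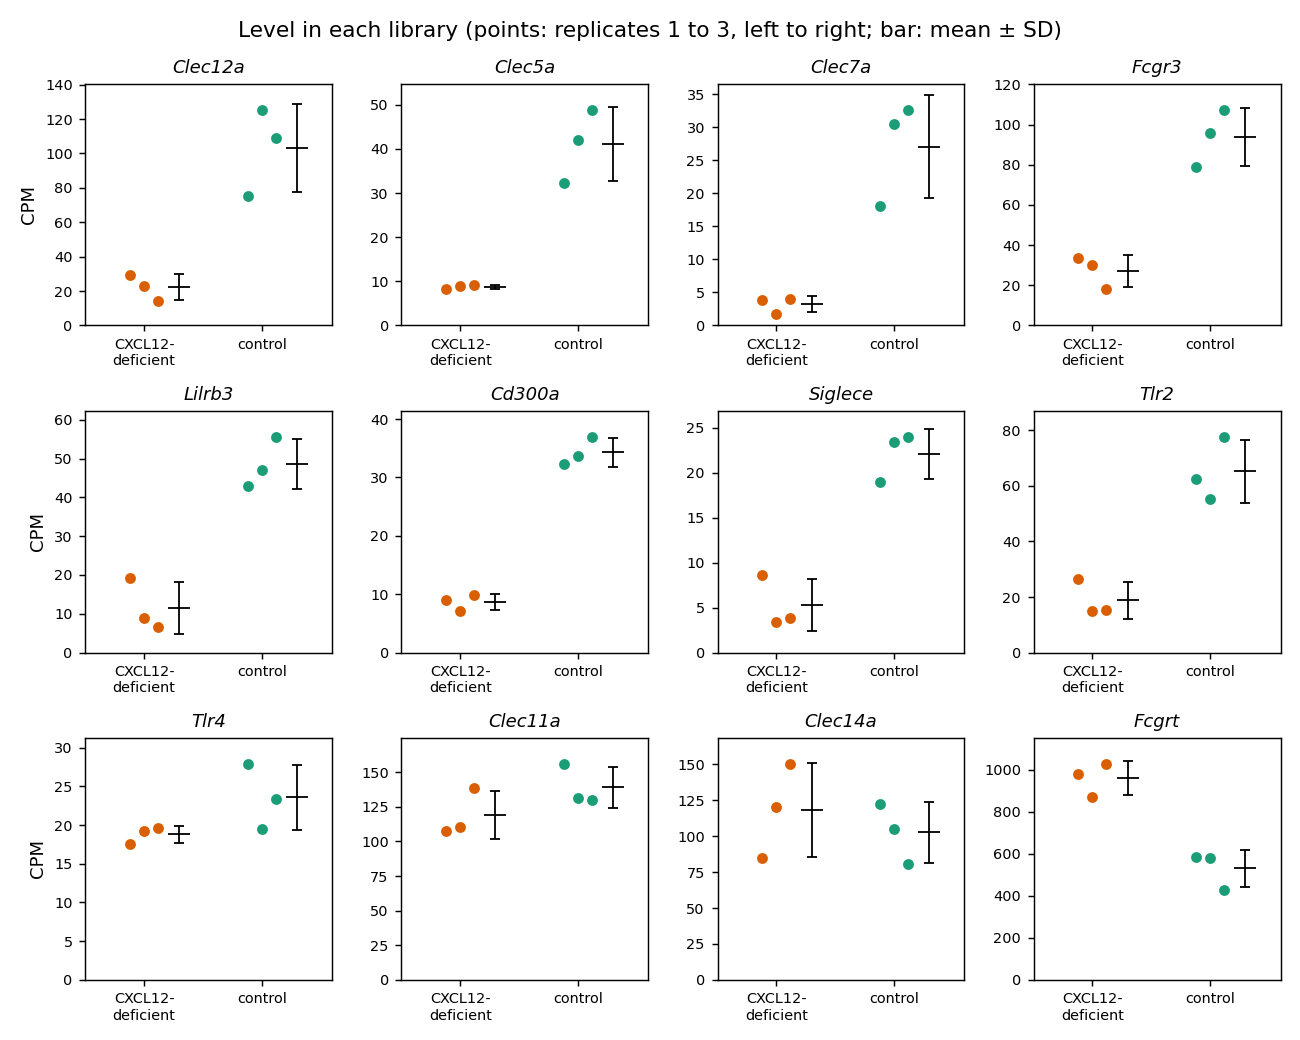
CPM of 12 members in each CXCL12-deficient (left) and control (right) library, with the mean ± SD beside the points. The 8 leukocyte members from Clec12a to Tlr2 show no overlap between the groups, Tlr4, Clec11a and Clec14a overlap, and Fcgrt is higher in every CXCL12-deficient library.

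Myeloid C-type lectins supplied 6 of the decreases. None of the 12 tested was called higher, the median of their log2 fold changes was -1.96, and at 8 the CXCL12-deficient libraries all lay below the controls. Clec12a, an inhibitory receptor of myeloid cells, was the most abundant of this class in CPM, with 29.4, 23.1 and 14.2 CPM in CXCL12-deficient libraries and 75.4, 125.5 and 108.9 CPM in controls. The highest CXCL12-deficient library was well under the lowest control (log2 fold change -2.22 ± 0.29, adjusted p = 0.0073). Clec5a, an activating receptor that pairs with Tyrobp, had 8.16, 8.89 and 9.19 CPM in CXCL12-deficient libraries and 32.3, 42.1 and 48.9 CPM in controls. The CXCL12-deficient libraries were nearly level with each other, and the change was 4.70-fold (-2.23 ± 0.22, adjusted p = 0.0039). Clec7a, the beta-glucan receptor Dectin-1, had 3.87, 1.79 and 3.95 CPM in CXCL12-deficient libraries and 18.1, 30.4 and 32.7 CPM in controls. It was 8.44-fold lower (-3.08 ± 0.38, adjusted p = 0.0055). These 3 genes were called in all 6 refits that left out a library.

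The named lectins of this class that were not called in every refit were Clec4a2, Clec4e and Clec4d. Clec4a2, an inhibitory receptor of dendritic and other myeloid cells, averaged 8.88 ± 2.74 CPM in CXCL12-deficient libraries and 32.5 ± 5.29 CPM in controls (-1.87 ± 0.27, adjusted p = 0.010). Leaving out control replicate 3 ended that call. Clec4e, the glycolipid receptor Mincle, had 20.2, 8.67 and 3.02 CPM in CXCL12-deficient libraries and 48.6, 48.8 and 51.2 CPM in controls. CXCL12-deficient replicate 1 stood well above the other two, the groups did not overlap, and the gene was not called (-2.22 ± 0.54, adjusted p = 0.052). It was called at -3.08 without that library and at -1.77 without CXCL12-deficient replicate 3. Clec4d, which forms a complex with Mincle, had 1.87, 1.22 and 0.13 CPM in CXCL12-deficient libraries and 11.3, 8.94 and 9.87 CPM in controls. It was 9.25-fold lower (-3.21 ± 0.70, adjusted p = 0.037; -3.87 without CXCL12-deficient replicate 1), a call made in 2 of the 6 refits. The class had 3 called members without control replicate 3.

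Low members of the same class with overlapping groups, picked out after their values were seen, were Clec4n and Clec10a. Clec4n, the fungal mannan receptor Dectin-2, averaged 3.66 CPM in CXCL12-deficient libraries and 3.74 CPM in controls (log2 fold change -0.03 ± 0.61, adjusted p = 0.99). Clec10a, a galactose-type lectin of macrophages, averaged 1.41 and 2.16 CPM (-0.61 ± 0.64, adjusted p = 0.68). At such low levels the SE is wide, and a missed call does not show that the groups are alike. Clec4n lies in the same cluster as Clec4d and Clec4e: 9 Clec4 genes occupy chr6:122921848-123289870, and 3 of the 8 tested there fell.

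Since many of these genes fell in the same libraries, the 250 bases before each RefSeq start were searched for GAGGAA and TTGCNNAA on both strands. GAGGAA is a core that PU.1, the ETS factor of myeloid and B cells, can bind, and TTGCNNAA is a form of the C/EBP site. Among 22 RefSeq promoters of the 19 members that fell, 15 held GAGGAA (68.2%) and 6 held TTGCNNAA (27.3%). Among 27 promoters of 23 tested members that were not called, 15 (55.6%) and 8 (29.6%) did. GAGGAA was held by 23.3% and TTGCNNAA by 9.56% of all 32851 promoters. Both motifs were chosen with the results known, and a match is a description of letters, not evidence of binding. The promoters of 3 members that fell, then of Fcgrt, which rose, and of Clec11a, which was not called, are shown 5′ to 3′ on the gene's strand (RefSeq, GRCm38.p6), with matches to either motif in capitals. They lie at chr6:40585806-40586055 on the minus strand for Clec5a, chr1:171059404-171059653 on the minus strand for Fcgr3, chr6:129349994-129350243 on the plus strand for Clec12a, chr7:45103823-45104072 on the minus strand for Fcgrt and chr7:44306960-44307209 on the minus strand for Clec11a.
Clec5a: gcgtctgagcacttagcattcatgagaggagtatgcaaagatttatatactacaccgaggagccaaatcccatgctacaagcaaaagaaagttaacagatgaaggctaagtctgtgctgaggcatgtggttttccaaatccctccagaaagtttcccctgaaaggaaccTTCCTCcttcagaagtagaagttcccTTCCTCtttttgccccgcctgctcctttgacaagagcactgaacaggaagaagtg
Fcgr3: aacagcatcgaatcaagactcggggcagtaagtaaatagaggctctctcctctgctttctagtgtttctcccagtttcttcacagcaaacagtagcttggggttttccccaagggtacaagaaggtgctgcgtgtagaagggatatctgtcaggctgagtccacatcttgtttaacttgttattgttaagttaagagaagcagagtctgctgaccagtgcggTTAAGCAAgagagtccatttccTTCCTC
Clec12a: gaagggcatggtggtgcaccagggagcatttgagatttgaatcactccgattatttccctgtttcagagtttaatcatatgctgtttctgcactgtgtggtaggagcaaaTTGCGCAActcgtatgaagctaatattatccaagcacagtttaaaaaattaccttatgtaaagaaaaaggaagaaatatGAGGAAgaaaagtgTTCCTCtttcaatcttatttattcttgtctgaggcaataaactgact
Fcgrt: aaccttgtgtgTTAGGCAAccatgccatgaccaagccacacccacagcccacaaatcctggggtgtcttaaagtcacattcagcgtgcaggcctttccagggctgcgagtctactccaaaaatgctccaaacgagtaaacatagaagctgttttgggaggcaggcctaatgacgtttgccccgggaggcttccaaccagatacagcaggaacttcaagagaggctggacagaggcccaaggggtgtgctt
Clec11a: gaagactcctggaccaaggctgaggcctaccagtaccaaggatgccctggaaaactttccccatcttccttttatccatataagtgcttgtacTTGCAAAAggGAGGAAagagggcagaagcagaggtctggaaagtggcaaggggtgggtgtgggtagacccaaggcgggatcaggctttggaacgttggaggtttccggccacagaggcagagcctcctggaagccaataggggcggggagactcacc
Clec5a holds GAGGAA at 2 places and Clec12a at 2, each in the reverse direction at least once, and Fcgr3 holds it just before the RefSeq start. The windows of Fcgr3 and Clec12a lie inside these genes as annotated by GENCODE, at chr1:171051174-171064935 and chr6:129342691-129365303. In Fcgrt no GAGGAA was found in this window, which holds TTGCNNAA 1 time. Clec11a holds each motif 1 time.

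Fc gamma receptors gave 2 decreases among 4 tested members. Fcgr3, an activating low-affinity receptor, was the most abundant leukocyte member per kilobase, at 15.7 and 54.2 CPM per kb in CXCL12-deficient and control libraries. It had 33.5, 30.2 and 18.3 CPM in CXCL12-deficient libraries and 78.7, 95.8 and 107.5 CPM in controls. The decrease was 3.44-fold (-1.78 ± 0.24, adjusted p = 0.0081) and was called in all 6 refits. Fcgr2b, the inhibitory receptor of the family, had 6.33, 4.27 and 2.66 CPM in CXCL12-deficient libraries and 18.5, 25.4 and 20.4 CPM in controls. It fell 4.84-fold (-2.27 ± 0.34, adjusted p = 0.011), a call lost without control replicate 2 or 3. Fcgr4 had 3.46, 0.87 and 0.27 CPM in CXCL12-deficient libraries and 6.82, 8.25 and 10.2 CPM in controls without overlap, yet was not called (-2.45 ± 0.75, adjusted p = 0.12); it was called without CXCL12-deficient replicate 1, at -3.87. The family had 1 called member without control replicate 2 or 3. These 3 genes are neighbours on chromosome 1, within chr1:170958617-171064935, and are similar in sequence, so reads shared between them are a source of uncertainty.

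Fcgr1, the high-affinity IgG receptor of monocytes and macrophages, was not called. It had 3.79, 1.48 and 2.31 CPM in CXCL12-deficient libraries and 2.18, 2.56 and 0.71 CPM in controls, and the groups overlapped (0.47 ± 0.65, adjusted p = 0.76). Siglec1, a macrophage adhesion receptor chosen after its values were seen, averaged 0.82 CPM in CXCL12-deficient libraries and 0.77 CPM in controls (0.11 ± 1.18, adjusted p = 0.98). Of the monocyte and macrophage markers, C1qc and Mertk were likewise not called. C1qc averaged 45.3 ± 15.2 and 26.3 ± 3.23 CPM and Mertk 18.8 ± 4.63 and 12.6 ± 5.58 CPM in CXCL12-deficient and control libraries. Csf1r fell, with 18.7 ± 5.80 and 63.4 ± 16.9 CPM in the same order (-1.76 ± 0.28, adjusted p = 0.012). Cd68 averaged 17.4 ± 6.25 and 31.4 ± 5.75 CPM, without overlap and without a call (-0.85 ± 0.29, adjusted p = 0.15). The monocyte and granulocyte gene Lyz2 did fall, with 432 ± 180.5 CPM in CXCL12-deficient libraries and 2326 ± 571 CPM in controls (-2.43 ± 0.32, adjusted p = 0.0069). Of 11 measured monocyte and macrophage markers 4 fell, 5 had a negative log2 fold change and 6 a positive one.

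Activating and inhibitory members of the paired families both fell. In the Lilr family, Lilrb3 (the inhibitory receptor that the annotation names Pirb) had 19.2, 8.89 and 6.48 CPM in CXCL12-deficient libraries and 42.9, 47.1 and 55.6 CPM in controls. It fell (-2.07 ± 0.37, adjusted p = 0.018; -2.66 without CXCL12-deficient replicate 1), in 3 of the 6 refits too. Lilra6, an activating member, had 0.42, 1.74 and 0.58 CPM in CXCL12-deficient libraries and 8.46, 8.04 and 11.6 CPM in controls. It was 10.2-fold lower (-3.35 ± 0.57, adjusted p = 0.015; -4.22 without CXCL12-deficient replicate 2), and the call was lost without control replicate 2 or 3. Lilrb4, another inhibitory member, had 39.2, 12.95 and 8.21 CPM in CXCL12-deficient libraries and 52.7, 60.1 and 64.8 CPM in controls. CXCL12-deficient replicate 1 was far above the other two, and the gene was not called by edgeR with all libraries (-1.56 ± 0.49, adjusted p = 0.12). Of the 6 refits, the one without that library called it (-2.48), and with all libraries DESeq2 and limma-voom called it. The family had 3 called members without CXCL12-deficient replicate 1, 1 without CXCL12-deficient replicate 2 and 0 without control replicate 2 or 3. Lilra6 and Lilrb3 belong to a family of near-identical genes, so their counts are uncertain.

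In the Pilr family the inhibitory Pilra had 21.5, 8.85 and 7.95 CPM in CXCL12-deficient libraries and 32.1, 47.2 and 46.5 CPM in controls (-1.71 ± 0.38, adjusted p = 0.040; -2.32 without CXCL12-deficient replicate 1). The activating Pilrb1 averaged 2.48 ± 0.97 and 9.17 ± 2.45 CPM in CXCL12-deficient and control libraries (-1.88 ± 0.41, adjusted p = 0.035). Pilrb2, its near copy, averaged 4.42 ± 3.55 and 15.7 ± 4.52 CPM and was not called (adjusted p = 0.099). At all 3 genes the CXCL12-deficient libraries lay below the controls, but both calls were lost without CXCL12-deficient replicate 2 or 3 or control replicate 2 or 3.

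In the Cd300 family 3 of 5 tested members fell. Cd300a, an inhibitory receptor for phospholipids, had 8.99, 7.19 and 9.85 CPM in CXCL12-deficient libraries and 32.3, 33.6 and 37.0 CPM in controls. Both groups were tight, and the decrease of 3.95-fold (-1.98 ± 0.21, adjusted p = 0.0039) was called in all 6 refits. Cd300lb, an activating partner, had 17.4, 17.8 and 6.48 CPM in CXCL12-deficient libraries and 57.8, 50.9 and 58.8 CPM in controls (-2.00 ± 0.35, adjusted p = 0.016), and lost its call without control replicate 2 or 3. Cd300ld averaged 3.66 ± 2.62 and 15.4 ± 0.61 CPM in CXCL12-deficient and control libraries (-2.08 ± 0.46, adjusted p = 0.040). Of the 6 refits, the one without CXCL12-deficient replicate 1 kept this call, at -2.84. The inhibitory Cd300lf averaged 14.2 ± 10.2 and 43.1 ± 5.10 CPM and was not called (adjusted p = 0.079). Cd300lg, which is known from endothelial cells, had the smallest change of the family, with 4.46, 9.37 and 12.2 CPM in CXCL12-deficient libraries and 16.5, 16.1 and 13.3 CPM in controls (-0.82 ± 0.36, adjusted p = 0.26). Of the 7 Cd300 genes, 6 lie together at chr11:114890041-115133992, and Cd300lg lies apart from them at chr11:102041509-102055620. The family had 1 called member without control replicate 2 or 3.

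Among Siglecs 1 of 5 tested members fell. Siglece, an inhibitory receptor of neutrophils and macrophages, had 8.58, 3.44 and 3.82 CPM in CXCL12-deficient libraries and 18.9, 23.4 and 24.0 CPM in controls. It was 4.18-fold lower (-2.06 ± 0.37, adjusted p = 0.018), a call lost without control replicate 2 or 3. Siglecg, which restrains B cell receptor signalling, had 19.7, 19.0 and 5.24 CPM in CXCL12-deficient libraries and 23.2, 46.6 and 71.4 CPM in controls. The controls differed widely among themselves, and the gene was not called (-1.68 ± 0.52, adjusted p = 0.12). Siglech, a receptor of plasmacytoid dendritic cells, had 0, 2.79 and 0.71 CPM in CXCL12-deficient libraries and 7.60, 8.53 and 13.1 CPM in controls (-3.06 ± 1.02, adjusted p = 0.14). The entry Siglec5, an older symbol of the eosinophil receptor gene Siglecf, averaged 0.34 ± 0.44 and 4.47 ± 2.05 CPM (-3.70 ± 1.07, adjusted p = 0.096). It was called without CXCL12-deficient replicate 1, at -5.59. At these 4 genes each CXCL12-deficient library lay below each control.

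Apart from Clec2d, the Clec2 genes were close to the limit of detection. Clec2l, Clec2g and Clec2i averaged 1.56, 0.17 and 0.11 CPM in CXCL12-deficient libraries and 2.34, 0.52 and 0.87 CPM in controls, and none was called.

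Toll-like receptors did not move as one group. Of 9 tested, Tlr2 and Tlr13 fell, and the others were not called. Tlr2, the receptor of bacterial lipopeptides, had 26.5, 14.9 and 15.2 CPM in CXCL12-deficient libraries and 62.6, 55.3 and 77.7 CPM in controls. The groups stood well apart (3.45-fold, -1.79 ± 0.26, adjusted p = 0.010), and the call was lost only without control replicate 3. Tlr4, the receptor of lipopolysaccharide, had 17.6, 19.2 and 19.7 CPM in CXCL12-deficient libraries and 27.9, 19.5 and 23.4 CPM in controls. The groups overlapped narrowly (-0.33 ± 0.21, adjusted p = 0.46). Tlr6, a partner of Tlr2, had 11.6, 9.07 and 15.3 CPM in CXCL12-deficient libraries and 5.03, 7.76 and 7.46 CPM in controls, so that every CXCL12-deficient library was above every control without a call (0.83 ± 0.32, adjusted p = 0.19). Its neighbour Tlr1, the other partner of Tlr2, averaged 0.91 ± 0.46 and 1.31 ± 1.15 CPM in CXCL12-deficient and control libraries, and its log2 fold change of -0.52 ± 0.83 (adjusted p = 0.80) changed sign without control replicate 3.

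Of 5 tested endosomal receptors, 4 had a negative log2 fold change and 1, Tlr3, a positive one. Their median was -2.10. Tlr3, which senses double-stranded RNA, had 12.9, 20.6 and 16.2 CPM in CXCL12-deficient libraries and 13.02, 8.65 and 10.3 CPM in controls (0.63 ± 0.27, adjusted p = 0.25). Tlr13, which in the mouse senses bacterial ribosomal RNA, had 2.75, 1.92 and 0.18 CPM in CXCL12-deficient libraries and 10.8, 12.03 and 16.5 CPM in controls. It was 8.07-fold lower (-3.01 ± 0.71, adjusted p = 0.048; -3.63 without CXCL12-deficient replicate 1), and of the 6 refits the one without CXCL12-deficient replicate 3 kept this call. Tlr8 and Tlr12, in the mouse a receptor of profilin, averaged 1.45 and 0.60 CPM in CXCL12-deficient libraries and 2.92 and 2.59 CPM in controls, and neither was called (adjusted p = 0.62 and 0.34). Tlr7, added after its values were seen, had 0, 15 and 0 reads in CXCL12-deficient libraries and 39, 88 and 74 in controls. The groups did not overlap, and edgeR with all libraries did not call it (-3.665 ± 1.32, adjusted p = 0.17). DESeq2 did, as did the refit without CXCL12-deficient replicate 2.

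The genes through which these receptors signal were listed from textbook pathways. Of 13 activating adaptors and kinases, 10 fell, all 13 had a negative log2 fold change, and the median was -1.93. Of all tested genes 3.94% were called lower and 47.4% had a negative value. These shares also stand beside the partner lists that follow. Among the most abundant, Lyn and Prkcd averaged 105 ± 10.2 and 105 ± 13.2 CPM in CXCL12-deficient libraries and 190 ± 16.4 and 226 ± 53.9 CPM in controls (-0.86 ± 0.15 and -1.11 ± 0.20, adjusted p = 0.016 and 0.018). Both kinases are used in many cell types. Fgr, a Src family kinase of myeloid cells, had 16.2, 12.5 and 3.24 CPM in CXCL12-deficient libraries and 63.7, 53.8 and 66.1 CPM in controls (-2.52 ± 0.47, adjusted p = 0.020). Bcl10, an adaptor found in most cells, averaged 90.5 and 110 CPM and was not called (-0.28 ± 0.14, adjusted p = 0.33). The adaptors Fcer1g and Tyrobp and the kinase Syk, named after their values were seen, fell by 1.47, 1.93 and 2.48 on the log2 scale (adjusted p = 0.012, 0.011 and 0.0080). Leaving out control replicate 2 or 3 left 5 or 2 called members in this list.

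Of 4 phosphatases of the inhibitory pathway, the leukocyte members Ptpn6 and Inpp5d fell and the broadly expressed Ptpn11 and Inppl1 were not called. Ptpn6 had 61.7, 52.7 and 45.1 CPM in CXCL12-deficient libraries and 188, 253 and 282 CPM in controls (-2.18 ± 0.20, adjusted p = 0.0032, called in all 6 refits). Inpp5d averaged 10.4 ± 5.68 and 50.1 ± 18.8 CPM in CXCL12-deficient and control libraries (-2.27 ± 0.40, adjusted p = 0.017). Ptpn11 had 28.9, 31.7 and 32.0 CPM in CXCL12-deficient libraries and 34.1, 26.7 and 27.9 CPM in controls (0.06 ± 0.18, adjusted p = 0.89). Without CXCL12-deficient replicate 1, control replicate 2 or control replicate 3 the list had 1 called member.

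**Figure D3:**
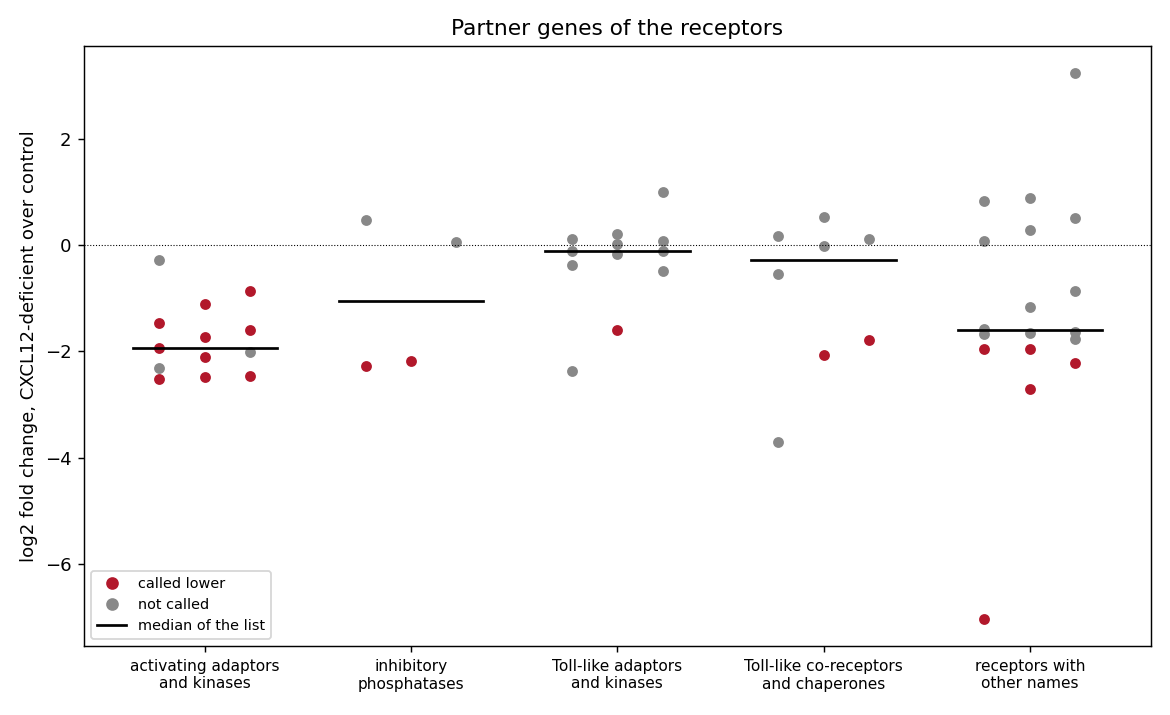
Log2 fold change (CXCL12-deficient over control) of the 55 tested partner genes in 5 lists, with the median of each list as a bar. Activating adaptors and kinases lie below 0 throughout, Toll-like adaptors lie around 0, and no partner gene was called higher.

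Of 12 Toll-like receptor adaptors and kinases tested, 1 was called lower (8.33%, against 3.94% of all tested genes). Their median was -0.11 on the log2 scale. Myd88 had 266, 204 and 212 CPM in CXCL12-deficient libraries and 216, 210 and 161.5 CPM in controls (0.22 ± 0.17, adjusted p = 0.57), and Irak1 averaged 165 ± 15.6 and 161 ± 7.16 CPM (0.03 ± 0.14, adjusted p = 0.94). The gene that fell was Irf5, an interferon regulatory factor used by myeloid cells, with 21.1, 18.3 and 19.3 CPM in CXCL12-deficient libraries and 50.6, 53.4 and 73.8 CPM in controls (-1.60 ± 0.20, adjusted p = 0.0056, called in all 6 refits). Irf7 had 227, 288 and 92.5 CPM in CXCL12-deficient libraries and 119.7, 94.3 and 91.2 CPM in controls. CXCL12-deficient replicate 3 lay with the controls, and with all libraries edgeR did not call the gene (0.99 ± 0.35, adjusted p = 0.16). Of the 6 refits the one without that library called it, as did DESeq2 on all libraries.

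Among the co-receptors, Cd14 presents lipopolysaccharide to Tlr4. Cd14 had 53.0, 25.0 and 14.4 CPM in CXCL12-deficient libraries and 144, 123 and 121 CPM in controls. It fell (-2.07 ± 0.40, adjusted p = 0.023; -2.72 without CXCL12-deficient replicate 1), in 2 of the 6 refits too. Lbp, a secreted carrier of lipopolysaccharide, had 437.5, 464 and 485 CPM in CXCL12-deficient libraries and 317, 334 and 312 CPM in controls, each CXCL12-deficient library above each control and the change not called (0.53 ± 0.14, adjusted p = 0.068). Ly96, the protein that binds lipopolysaccharide together with Tlr4 and is added here after its values were seen, averaged 10.3 ± 0.98 and 10.4 ± 1.61 CPM in CXCL12-deficient and control libraries (-0.01 ± 0.26, adjusted p = 0.99). Differences between these genes were not tested. The chaperones Hsp90b1 and Unc93b1 averaged 876 and 186 CPM in CXCL12-deficient libraries and 807 and 269 CPM in controls, without a call. Of the 8 genes 2 fell. None was called when CXCL12-deficient replicate 2 or either of control replicates 2 and 3 was left out, and 1 was called when CXCL12-deficient replicate 1 or control replicate 1 was left out.

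Of 18 tested receptors of these families that carry other names, 5 fell and none was called higher. Cd209a, a lectin of dendritic cells and monocytes, had 0, 3 and 0 reads in CXCL12-deficient libraries and 169, 158 and 141 reads in controls. Controls were 147-fold higher, with an exact 95% counting interval from 49.9 to 714, and the call (adjusted p = 0.0066) was made in all 6 refits. Its fitted log2 fold change of -7.04 was -10.26 without CXCL12-deficient replicate 2, the only such library with reads. Cd209f, a related lectin named after its values were seen, had the highest log2 fold change of the list. It had 3.21, 0.48 and 9.05 CPM in CXCL12-deficient libraries and 0.04, 0.57 and 0.76 CPM in controls, which overlapped, and was not called (3.23 ± 1.16, adjusted p = 0.17). Colec12 and Cd302, lectins also found outside leukocytes, averaged 758 ± 85.8 and 544 ± 92.2 CPM in CXCL12-deficient libraries and 532 ± 43.1 and 305 ± 70.6 CPM in controls. At both genes every CXCL12-deficient library was above every control, without a call (adjusted p = 0.12 and 0.063). Cd72, a B cell lectin, had 38.7, 42.7 and 20.4 CPM in CXCL12-deficient libraries and 51.1, 105.5 and 158.6 CPM in controls (adjusted p = 0.057). The 5 decreases of this list were 3 without CXCL12-deficient replicate 2 and 1 without control replicate 2 or 3.

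Each receptor was also set against Ptprc, the leukocyte antigen CD45, in the same library. Ptprc itself had 12.7, 16.9 and 10.2 CPM in CXCL12-deficient libraries and 59.8, 75.4 and 106.9 CPM in controls. Its log2 fold change of -2.605 was the most negative of the 5 pan-leukocyte markers, which ran up to -1.97. No other reference gene was tried, so the ratios below hold for Ptprc only. The log2 ratio of Clec11a to Ptprc was 3.19 ± 0.54 in CXCL12-deficient libraries and 0.82 ± 0.55 in controls (SD, n = 3 each; p = 0.1 by exact two-sided permutation, the lowest value that 3 against 3 can give). For Clec12a the ratio was 0.71 ± 0.43 and 0.37 ± 0.36 (exact permutation p = 0.4), and for Clec5a -0.57 ± 0.39 and -0.95 ± 0.15 (exact permutation p = 0.3). With 3 libraries against 3 no ratio could pass 0.05 whatever its values (the lowest adjusted p over the 51 members was 0.3), so the ratios describe these libraries only. The ratio was above the controls in every CXCL12-deficient library for 15 of the 51 members and below them for 2, against 88.5% and 0.294% of all tested genes apart from Ptprc, and 34 members overlapped. Of 32 members of the 6 leukocyte families, 25 overlapped between the groups. The ratio of 6 (Fcgr3, Fcgr1, Siglec1, Clec4n, Clec10a and Cd300lg) was above the controls in every CXCL12-deficient library. Lilra6 was the only one below, at -4.07 ± 0.80 in CXCL12-deficient libraries and -3.08 ± 0.23 in controls.

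**Figure D4:**
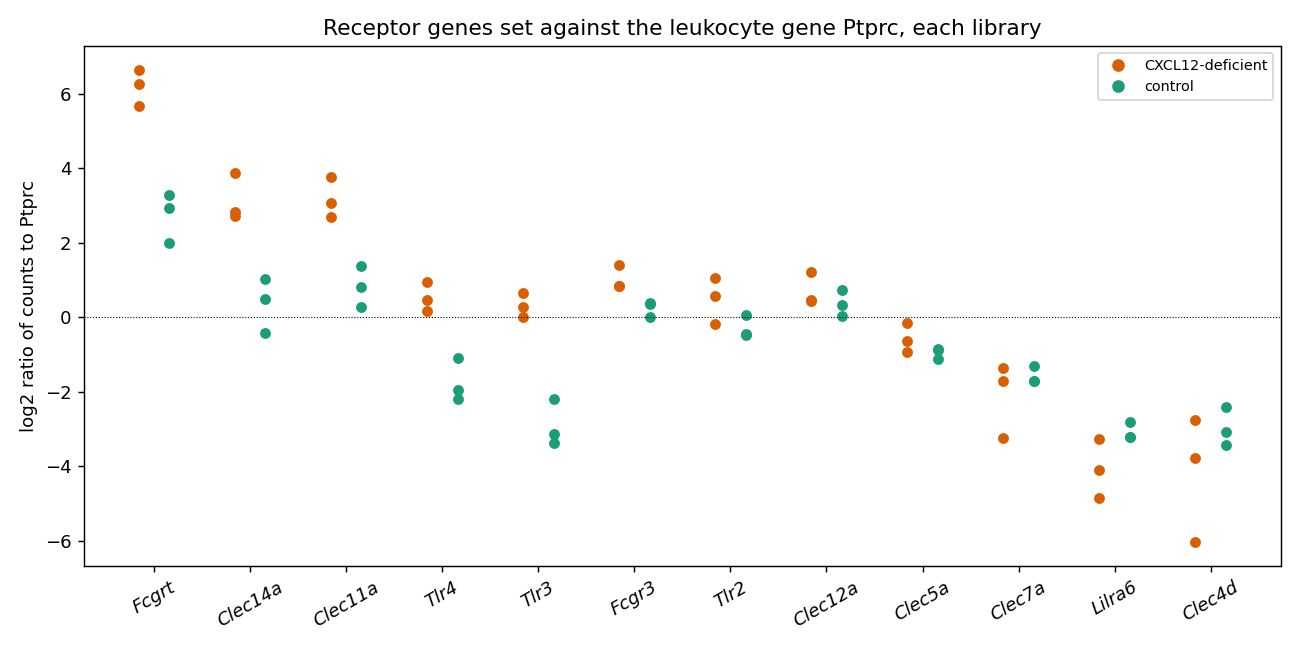
Log2 ratio of counts to Ptprc for 12 members in each CXCL12-deficient (left of each pair) and control (right) library. Fcgrt, Clec14a, Clec11a, Tlr4, Tlr3 and Fcgr3 stand higher against Ptprc in every CXCL12-deficient library, as do 88.5% of all tested genes apart from Ptprc. Tlr2, Clec12a, Clec5a, Clec7a and Clec4d overlap, and Lilra6 stands lower in every CXCL12-deficient library.

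Variation within the CXCL12-deficient group was shared by many of the receptors. Of the 19 members that fell, CXCL12-deficient replicate 1 was the highest of its group at 13, and replicate 3 the lowest at 11. The highest over the lowest CXCL12-deficient library was 1.13-fold for Clec5a and 1.37-fold for Cd300a, but 14.1-fold for Clec4d and 15.5-fold for Tlr13. Neutrophil gene Ngp had 2782, 1113 and 776 CPM in the same CXCL12-deficient libraries. Of the members that fell, Lilrb3, Pilra, Cd300ld, Fcgr3, Fcgr2b, Clec12a, Clec4a2, Clec4d, Pilrb1 and Tlr13 had that order and the others did not. Among members not called, Clec4e, Cd300lf, Lilrb4 and Fcgr4 were some that had it. So did the neutrophil markers S100a8, S100a9, Ltf, Camp, Retnlg and Mmp8. The neutrophil marker Mpo had 390, 879.5 and 346.5 CPM and was highest in replicate 2, as were Elane, Csf3r, Cxcr2 and Ptprc. Whether these markers and the receptors vary together was not tested. Among controls, replicate 3 was the highest at 12 of the 19.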

How the data were processed

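The authors deposited whole-number read counts per gene symbol for the 6 libraries, not normalized. Among the tools in the submitters' processing notes are HTSeq, Cufflinks, TopHat2 2.0.13 and Bowtie2 2.2.1, with mm10 as build and no role for any of them. Annotation, strand setting and treatment of shared reads were not given in the sources used here. Counts of near-identical or overlapping genes are therefore uncertain. The labels name a Nextera XT kit, and the library amplification named by the series is SMARTer.

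The 4 exon entries of Cxcl12 were summed. Genes were filtered with filterByExpr (minimum count 10, minimum total 15), scaled by TMM and compared over all 13926 tested genes with the robust quasi-likelihood test of edgeR (version 4.0.16, run in R 4.3.3), p-values being adjusted by Benjamini-Hochberg with a threshold of 0.05. SE came from the F statistic. Steps were tested on simulated data. Ratios to Ptprc used counts plus 0.5 and exact permutation of the libraries. CPM per kb uses exon lengths and coordinates of GENCODE M21 (GRCm38), to which all 63 members matched, 3 of them by an older symbol. Promoters are those of RefSeq (GRCm38.p6), windows of 250 bases.

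The members, classes and partner lists were chosen with earlier results of these data known. Named were Clec11a, Clec3b and, per class, the highest by mean CPM (up to 4) and the called genes of largest change (up to 2). Per partner list these limits were 3 and 1. As alternatives, the test was run with DESeq2 1.42.0 and with limma-voom (limma 3.58.1), edgeR was run with other scaling factors or without the filter, and each library was left out.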

Additional observations from a re-analysis of the deposited data

How the results depend on the processing

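Members called lower numbered 19 with DESeq2 size factors, upper quartile factors or no filter on low counts (the same 19 genes each time), 22 with limma-voom (18 of the 19, without Clec1b) and 27 with DESeq2. With 1 library left out the number ran from 5 to 23, and for the 6 leukocyte families it ran from 5 to 21 around 16. The share of all tested genes called lower ran from 0.521% to 3.74% in these refits. Members called higher numbered 1 (Fcgrt) under each of those 5 settings and ran from 0 to 1 with a library left out, where the refit without CXCL12-deficient replicate 2 kept the call. Partner genes called lower ran from 5 to 21 around 20. Partner genes called higher numbered 0 by edgeR (none of the 55 tested) and 5 by DESeq2, and ran from 0 to 1 with a library left out.

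Among the genes named by rule, the signs that changed all belonged to genes without a call. The log2 fold change of Clec2d was -0.0090 with DESeq2 size factors, -0.0095 with the DESeq2 test and -0.0187 with limma-voom. With a library left out it ran from -0.16 to 0.15 for Clec2d, -0.0039 to 0.40 for Clec14a, -0.084 to 0.36 for Clec16a, -1.01 to 0.47 for Tlr1, -0.036 to 0.10 for Irak1, -0.047 to 0.25 for Hsp90b1 and -0.0050 to 0.16 for Ptpn11. Clec4n, Siglec1 and Ly96, named after their values were seen and not called, also changed sign with a library left out. They ran from -0.47 to 0.29, -0.50 to 0.68 and -0.12 to 0.12. The cause was not tested.

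No paired analysis was possible because the labels give no batch, litter or pairing. They give no replicate numbers either, and those used here follow the order of the libraries in the count table within each group. With 3 libraries a group, members under about 1 CPM have wide errors, and 12 could not be tested.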
